A study of Mus musculus with 27 samples.

Results

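Fibroblasts labelled KO-NTD were compared with WT fibroblasts of the same experiment, over all genes. Mouse embryonic fibroblasts are primary connective-tissue cells grown out of embryos. The comparison took the 3 KO-NTD and the 3 WT libraries that the labels number as experiment 1, 6 of the 27 RNA sequencing libraries of the series. The other libraries were 3 labelled KO in experiment 1, 12 fibroblast libraries of experiment 2 (Het-NTD, WT-NTD, Het and WT, 3 each) and 6 whole-lung libraries. The KO libraries entered the same fit as KO-NTD and WT, and those of experiment 2 entered a joint fit. The lung libraries are not analysed here. Per the labels, every fibroblast culture was C57BL/6, at an early passage, asynchronous, and harvested near 90% confluence. KO and Het refer to Foxm1. What NTD stands for, what drives it in the cells, where Foxm1 was altered and whether WT cells carried a control construct are all unstated in the labels. Nor is it stated that numbered libraries are separate embryos or cultures. The p-values hence reflect the spread among these libraries, which may be technical in part.

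FoxM1 is a forkhead transcription factor made in dividing cells. It works with the MuvB complex and B-Myb at promoters of genes needed for G2 and mitosis, among them cyclin B, the kinases that separate centrosomes, and centromere proteins. Many of those promoters hold a short element called the cell cycle genes homology region (CHR) and CCAAT boxes bound by NF-Y. WT fibroblasts in culture express this programme because they divide.

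The promoters of the 3 genes of lowest p in the comparison whose promoters were in the RefSeq table are printed here to show that mitotic genes that fell alike differ in these elements. Each runs from 130 bases before to 30 bases after the gene's start, 5′ to 3′ on the plus strand (RefSeq, GRCm38.p6). Capitals mark the letters TTTGAA (CHR) and CCAAT (the CCAAT box), searched on both strands, so that ATTGG is a CCAAT box on the other strand. Cenpa lies at chr5:30666756-30666915, Nek2 at chr1:191821343-191821502 and Knstrn at chr2:118813873-118814032.
Cenpa: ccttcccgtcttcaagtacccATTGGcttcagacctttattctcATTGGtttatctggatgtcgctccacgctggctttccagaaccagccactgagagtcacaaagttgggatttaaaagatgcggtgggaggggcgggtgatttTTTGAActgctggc
Nek2: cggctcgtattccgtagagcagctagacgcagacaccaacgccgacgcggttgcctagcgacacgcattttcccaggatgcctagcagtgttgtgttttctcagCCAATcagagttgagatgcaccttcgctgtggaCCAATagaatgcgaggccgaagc
Knstrn: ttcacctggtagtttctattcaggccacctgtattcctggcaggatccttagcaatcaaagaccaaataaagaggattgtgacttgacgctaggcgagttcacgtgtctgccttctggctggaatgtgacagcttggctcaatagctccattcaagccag
The Cenpa stretch holds a CHR downstream of the RefSeq start and CCAAT boxes upstream of it. The Nek2 stretch holds a CCAAT box on each side of the RefSeq start and no TTTGAA. GENCODE M21 starts these genes further upstream, at 30666777 for Cenpa and 191821444 for Nek2. Relative to those starts none of the marked CCAAT boxes lies upstream. Knstrn held neither run of letters in its whole window of 300 bases, which says nothing about the factors that bind there.

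Depth was alike in both groups. Total counts were 47380829 to 59146766 in the KO-NTD libraries and 47812341 to 60156471 in the WT libraries, with 16444 to 16818 genes detected per library. Among genes with low counts 61.5 to 64.7% of counts were even, so the reads behind these totals may not all be independent. The totals may then overstate depth, which was not tested. Counts are treated as independent in the tests. Fibroblast markers dominated every library, at a summed 37074 to 41169 library-size-normalised counts (CPM, scaled by TMM) in KO-NTD and 32986 to 41746 CPM in WT. Among marker genes of blood cells, 5 of 7 T cell, 3 of 5 B cell and 9 of 13 erythroid genes were at 0 in all 6 libraries. Macrophage markers summed to 41.3, 11.7 and 332 CPM in KO-NTD libraries 1 to 3, against 114, 66.9 and 88.4 CPM in WT. KO-NTD library 3 was thus the highest of the 6 and KO-NTD library 2 the lowest. Xist was high in KO-NTD library 2 and in WT libraries 1 and 2, and Y-linked genes were high in the other 3, so each group held both kinds and hence cells of more than 1 embryo, and the groups were not balanced for sex (45 genes were called with that split as a covariate, a setting chosen after seeing the data, against 64 without it). The KO-NTD libraries were less alike than the WT ones, with Pearson r of log2 CPM across genes of 0.971 to 0.986 among KO-NTD and 0.989 to 0.990 among WT. KO-NTD library 2 lay closest to KO library 1 (0.990), and KO-NTD library 3 lay closest to KO libraries 2 and 3 (0.989 with each).

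Foxm1 itself was higher in KO-NTD. Its level was 364, 390 and 333 CPM in the 3 KO-NTD libraries and 139, 149 and 152 CPM in the 3 KO libraries, against 134, 140 and 136 CPM in the 3 WT libraries. Every KO-NTD value lay above every KO and WT value. The ratio of KO-NTD to WT was 2.65 (95% interval 2.40 to 2.94), or 1.41 ± 0.06 on the log2 scale (SE, edgeR adjusted p = 9.9e-05). The gene spans positions 128362967 to 128376146 of chromosome 6 on the plus strand of GRCm38, with 8 transcripts in GENCODE M21 and no exon shared with another gene. The counts are per gene, so the exons behind them are unknown. Reads from an NTD construct, if it holds Foxm1 sequence, and from the gene itself cannot be told apart, and the count neither bears out nor contradicts the label KO.

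Besides Foxm1, few genes passed the test, and most of those were lower in KO-NTD. Of 14551 genes tested, 64 passed an adjusted p of 0.05 in edgeR's quasi-likelihood test (0.44%), 9 of them higher (0.0619%) and 55 lower (0.378%). All 64 had CPM that did not overlap between the 3 KO-NTD and the 3 WT libraries, where 10.2% of all genes were higher and 11.2% lower without overlap. Before adjustment 1760 genes had p under 0.05, 830 higher and 930 lower. The 55 genes ranged from -4.30 to -0.31 on the log2 scale with a median of -0.78, and 17 of them were at least 2-fold lower. Of the 9 higher genes 3 were at least 2-fold higher. The median of all genes was 0.00. The count of 64 rested on single libraries: it was 34 without WT library 1, 41 without KO-NTD library 1, 39 without KO-NTD library 2 and 211 without KO library 1, which is in neither group but shares the fit's spread and low-count filter. DESeq2 called 401 genes (2.76% of 14541), 146 higher and 255 lower, among them all 64. The 211 genes without KO library 1 were 74 higher and 137 lower.

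**Figure D1:**
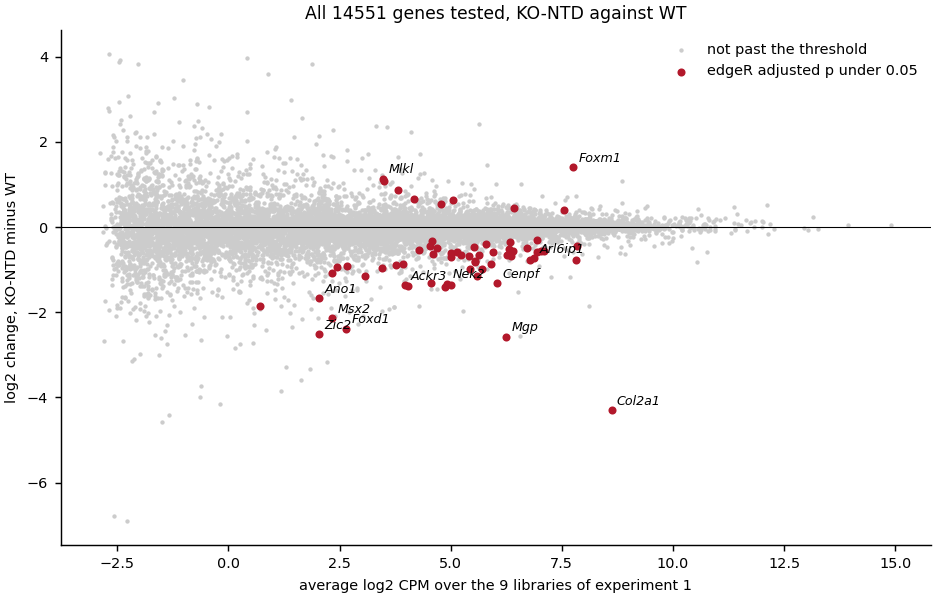
Each point is a gene of experiment 1, with its average log2 CPM on the horizontal axis and its log2 change, KO-NTD minus WT, on the vertical axis; red points passed an edgeR adjusted p of 0.05. Of the 64 red points 55 lie below 0, and Col2a1 (-4.30) and Mgp (-2.57) lie lowest among the well expressed genes.

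Genes of G2 and mitosis were the largest listed group to change. Of 46 genes listed as driven by FoxM1 in G2 and M, 16 were called lower in KO-NTD and none higher, against 0.378% lower among all genes. The list's median log2 change was -0.11, 29 members were below 0 and 17 above, and without overlap 6 were higher and 20 lower (10.2% and 11.2% of all genes). The list was written with earlier results of these libraries known, so its direction is not independent evidence.

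Nek2, a kinase that splits the centrosomes before mitosis, had 21.4, 18.9 and 20.7 CPM in KO-NTD, against 49.0, 54.6 and 49.9 CPM in WT. All 3 KO-NTD libraries lay below all WT libraries and close together. The log2 change was -1.33 ± 0.08 (SE, edgeR adjusted p = 3.9e-04). Knstrn, a kinetochore and spindle protein, had 19.2, 21.6 and 20.9 CPM in KO-NTD, against 50.9, 57.7 and 49.95 CPM in WT. Its change was -1.36 ± 0.09 (SE, edgeR adjusted p = 3.9e-04). Cenpa, the histone H3 variant that marks the centromere, had 33.7, 31.5 and 32.5 CPM in KO-NTD, against 62.9, 65.9 and 64.7 CPM in WT. Its groups were again far apart, at -0.99 ± 0.06 (SE, edgeR adjusted p = 3.9e-04).

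Cenpf, which coats kinetochores in G2 and M, had 43.2, 44.5 and 46.4 CPM in KO-NTD, against 92.4, 123 and 119 CPM in WT. The spread lay mostly in WT, whose library 1 was the lowest. The log2 change was -1.32 ± 0.11 (SE, edgeR adjusted p = 0.00168). Gas2l3, which links actin and microtubules during cytokinesis, had 10.2, 9.51 and 11.98 CPM in KO-NTD, against 24.0, 29.1 and 29.8 CPM in WT (log2 change -1.39, edgeR adjusted p = 0.00515). Aspm, a spindle pole protein, had 35.0, 32.6 and 35.1 CPM in KO-NTD, against 62.5, 80.8 and 85.1 CPM in WT (log2 change -1.15, edgeR adjusted p = 0.0116). Aspm and Cdc25b lost the call when single libraries were left out. Cdc25b, the phosphatase that starts the activation of Cdk1, had 17.8, 17.0 and 19.4 CPM in KO-NTD, against 49.9, 47.0 and 47.3 CPM in WT (log2 change -1.41, edgeR adjusted p = 0.0124). Spef1 overlaps its exons on the opposite strand, and reads of the 2 genes cannot be told apart with an unstranded kit.

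**Figure D2:**
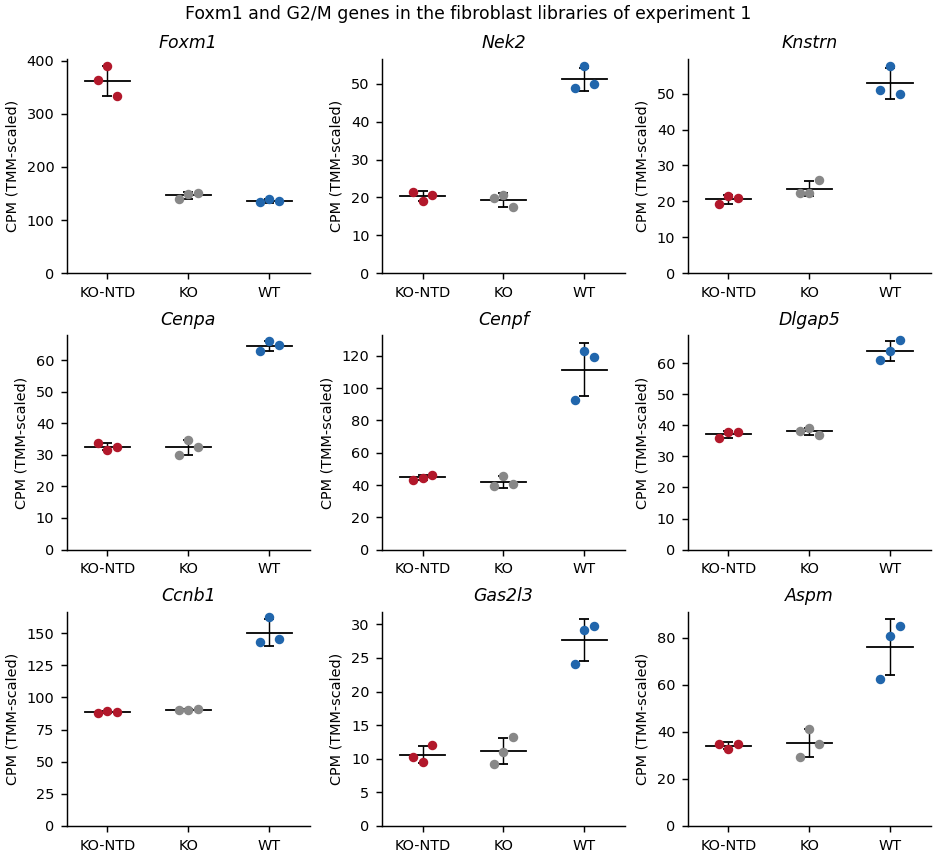
TMM-scaled CPM in the KO-NTD, KO and WT libraries of experiment 1 (points, 1 per library) with the mean (long line) and SD (bar, n = 3). Foxm1 is highest in KO-NTD, whereas the other 8 genes lie lower in KO-NTD and KO than in WT, and KO-NTD and KO overlap or adjoin.

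The cyclins of mitosis fell less. Ccnb1, cyclin B1, had 87.6, 89.3 and 88.9 CPM in KO-NTD, against 143, 163 and 145 CPM in WT, a log2 change of -0.76 (edgeR adjusted p = 4.6e-04). Ccna2 (cyclin A2, -0.56) and Ccnb2 (cyclin B2, -0.41) also passed, as did Cdc20, an activator of the anaphase-promoting complex (-0.31), and Ccnf, which gives a ubiquitin ligase its substrates (-0.81). Ccna2 overlaps Exosc9 and Cdc20 overlaps Elovl1 on the other strand, and Ccnf overlaps a microRNA on its own strand, so those 3 counts may hold reads of the neighbour. The remaining called members were Dlgap5, a spindle protein (-0.79), Troap (-0.87), and the kinesins Kif2c (-0.59) and Kif23 (-0.52). Leaving out libraries in turn gave 11 to 17 called members, and 11 of the 16 passed with any of the 9 libraries left out. The 5 that did not were Aspm, Cdc25b, Ccna2, Ccnb2 and Cdc20.

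The other members of the same list did not pass, and their log2 changes ran from -0.36 (Kif20a) to 0.58 (Pttg1). Before adjustment 28 of the 46 members, called or not, had p under 0.05 in the edgeR test. Plk1, the mitotic kinase that acts on FoxM1, had 121, 118 and 120 CPM in KO-NTD, against 115, 114 and 108 CPM in WT, which on the log2 scale is 0.10 ± 0.04 (SE, edgeR adjusted p = 0.418). Aurkb, the kinase of the chromosomal passenger complex, was at -0.07 (edgeR adjusted p = 0.705), Top2a, which untangles DNA, at 0.18 (0.349) and the proliferation marker Mki67 at -0.27 (0.397). Kif20a, a kinesin of cytokinesis, missed the threshold at -0.36 (0.0708) with no overlap between groups. Missing the threshold does not show that these genes were unchanged. They and the cyclins were chosen for naming after their values were seen.

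**Figure D3:**
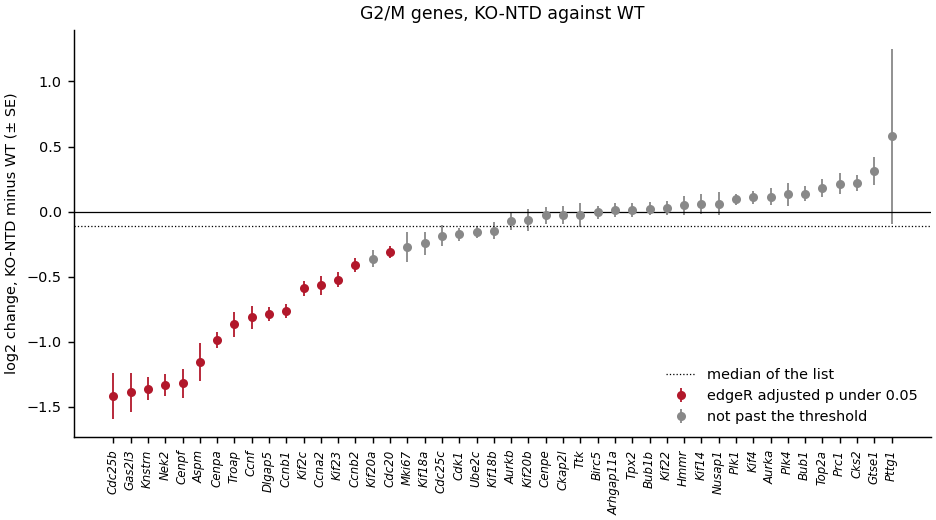
Log2 change, KO-NTD minus WT, with its SE for the 46 listed G2/M genes in rank order; red members passed an edgeR adjusted p of 0.05 and the dotted line is the list's median (-0.11). The 16 red members run from -1.41 (Cdc25b) to -0.31 (Cdc20), and the members that did not pass reach from -0.36 (Kif20a) to 0.58 (Pttg1).

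Several lower genes outside that list are also known from cell division. Cep55, a protein of the final cut between daughter cells, was the single called member of 37 kinetochore and spindle checkpoint genes tested (27.0 ± 1.70 CPM in KO-NTD and 44.1 ± 4.03 CPM in WT, SD, n = 3 each, edgeR adjusted p = 0.00713), and the median of that list was 0.03. Arl6ip1, a shaping protein of the endoplasmic reticulum, had 94.9, 99.9 and 99.0 CPM in KO-NTD, against 163, 168 and 155 CPM in WT (log2 change -0.73, edgeR adjusted p = 3.9e-04). Reep4, which clears that membrane from mitotic chromosomes, was at -0.58 and the cohesin subunit Rad21 at -0.45. The spindle proteins Ckap2 and Fam83d were at -0.67 and -0.65. Nde1, a dynein partner whose exons overlap Marf1, was at -0.35. These 5 passed the test and were chosen after their values were seen. Cdkn2d, the p19 inhibitor of Cdk4 and Cdk6, was lower as well, with 10.2, 10.3 and 9.76 CPM in KO-NTD, against 18.1, 19.3 and 18.8 CPM in WT (log2 change -0.89, edgeR adjusted p = 0.0017). It was the called member of 12 Cdk inhibitors and D cyclins.

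None of 44 G1/S genes driven by E2F passed. Their median was -0.03, with 29 below 0 and 15 above, and the lowest p was that of Uhrf1 (147 ± 4.41 CPM in KO-NTD and 173 ± 13.6 CPM in WT, SD, n = 3 each, edgeR adjusted p = 0.228). None of 14 genes of MuvB, B-Myb and DREAM passed either (median 0.10). Of 29 p53 targets none passed, although 23 were above 0 and the median was 0.24. Cdkn1a, the p21 inhibitor, had 201, 197 and 151 CPM in KO-NTD, against 130, 133 and 108 CPM in WT, without overlap but with an edgeR adjusted p of 0.342. No call was made among 25 DNA repair genes (median 0.01).

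The series title names the exchange factor Ect2, RhoA and the formin mDia1, which build the contractile ring of dividing cells. Ect2 had 88.2, 89.1 and 108 CPM in KO-NTD, against 96.1, 111 and 102 CPM in WT (log2 change -0.11, edgeR adjusted p = 0.705). Rhoa had 531, 525 and 538 CPM in KO-NTD, against 563, 545 and 572 CPM in WT (-0.08, edgeR adjusted p = 0.443). Diap1, which encodes mDia1, had 73.4, 69.4 and 68.8 CPM in KO-NTD, against 58.7, 66.0 and 63.0 CPM in WT (0.17, edgeR adjusted p = 0.433). Rhoa was lower and Diap1 higher in all KO-NTD libraries, while Ect2 overlapped between the groups. None of the 43 listed RhoA, formin and cortical actin genes passed, with a median of 0.00. The lowest p was that of Diap2, another formin, at 35.7, 35.2 and 34.9 CPM in KO-NTD, against 25.8, 27.7 and 27.1 CPM in WT (0.39, edgeR adjusted p = 0.199). No member passed among 27 SRF and MRTF targets or 25 YAP and TEAD targets (medians 0.01 and -0.02).

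The largest falls concerned cartilage matrix and embryonic patterning. Col2a1, the main collagen of cartilage, had 25.9, 75.4 and 30.8 CPM in KO-NTD, against 995, 883 and 725 CPM in WT. KO-NTD library 2 was well above the other KO-NTD libraries and still far below WT. The ratio was 0.0507, or -4.30 ± 0.66 on the log2 scale (SE, edgeR adjusted p = 0.0409). The call ended without any one of the 3 WT or the 3 KO-NTD libraries or KO library 2 (edgeR adjusted p of 0.0586 to 0.161). It also ended with no low-count filter, the replicate block, the Xist or Y covariate and the macrophage covariate (0.0715 to 0.113), while the log2 change stayed between -4.94 and -4.04 over all settings. Col2a1 was the called one of 10 tested chondrocyte markers, whose median was -0.86. Acan, the cartilage proteoglycan, had 12.8, 17.3 and 24.9 CPM in KO-NTD, against 60.9, 97.6 and 56.6 CPM in WT (edgeR adjusted p = 0.14). Sox9, the regulator of cartilage, had 37.6, 36.6 and 35.0 CPM in KO-NTD, against 31.8, 32.3 and 35.4 CPM in WT (0.13, edgeR adjusted p = 0.443). Chondrocyte markers other than Col2a1 summed to 61.0, 65.9 and 80.3 CPM in KO-NTD, against 110, 143 and 112 CPM in WT. Most of that sum was Sox9 and Acan. Sox9 overlapped between the groups, so the fall in the sum was mainly that of Acan. Of the 10 tested markers 4 were above 0. Fewer cartilage-forming cells and less RNA per cell cannot be told apart in bulk libraries. No osteoblast marker passed among 7 tested, of which 6 were above 0 and 1 below. Spp1, the most abundant, had 474, 925 and 363 CPM in KO-NTD, against 277, 297 and 263 CPM in WT, without overlap. The listed markers other than Spp1 summed to 62.6, 60.8 and 64.6 CPM in KO-NTD, against 56.1, 60.2 and 57.6 CPM in WT. Most of that sum was Runx2.

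Mgp, an inhibitor of calcification made by cartilage and vessels, had 17.4, 36.0 and 27.5 CPM in KO-NTD, against 179, 145 and 157 CPM in WT. Both groups were well apart, at -2.57 ± 0.24 (SE, edgeR adjusted p = 0.00393), and the call held with any library left out. Mgp was the called one of 52 extracellular matrix genes, whose median was 0.07. Sulf1, which trims heparan sulfate, also fell (172 ± 5.02 CPM in KO-NTD and 296 ± 29.2 CPM in WT, SD, n = 3 each, log2 change -0.78, edgeR adjusted p = 0.00333).

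Among 59 tested transcription factors of limb, face and body wall patterning, 3 were called lower and none higher (0.378% lower among all genes). Without overlap 4 were higher and 22 lower, where all genes gave 10.2% and 11.2%. The median was -0.38, and 37 members were below 0. The list's median was 0.03 in KO against WT and -0.26 in KO-NTD against KO. In experiment 2 it was -0.34 in WT-NTD against WT, with 0 members called. In Het-NTD against WT it was -0.42, with 9 members called lower and 3 higher. Zic2, a zinc finger factor of the dorsal neural tube and forebrain, had 1.29, 1.48 and 1.23 CPM in KO-NTD, against 9.40, 7.49 and 5.94 CPM in WT (-2.51 ± 0.25, SE, edgeR adjusted p = 0.00393). Msx2, a homeobox factor of limb and skull, had 2.64, 1.73 and 1.80 CPM in KO-NTD, against 9.30, 10.4 and 7.57 CPM in WT (-2.14 ± 0.22, SE, edgeR adjusted p = 0.00487). Foxd1, a forkhead factor of kidney stroma and other mesenchyme, had 1.76, 3.17 and 1.82 CPM in KO-NTD, against 14.7, 12.6 and 7.85 CPM in WT (-2.39 ± 0.32, SE, edgeR adjusted p = 0.0154). All 3 genes were lower in each KO-NTD library than in any WT library, though all were of low abundance. Foxd1 lost the call without WT library 1 or 2 or KO-NTD library 1 or 3 and with the replicate block (edgeR adjusted p up to 0.0801). Of 37 Hox genes none passed. Without overlap 8 were higher (10.2% of all genes) and 2 lower (11.2%). Hoxa2 had the lowest p, with 1.28, 1.05 and 0.819 CPM in KO-NTD, against 3.05, 2.52 and 2.196 CPM in WT (edgeR adjusted p = 0.0576).

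**Figure D4:**
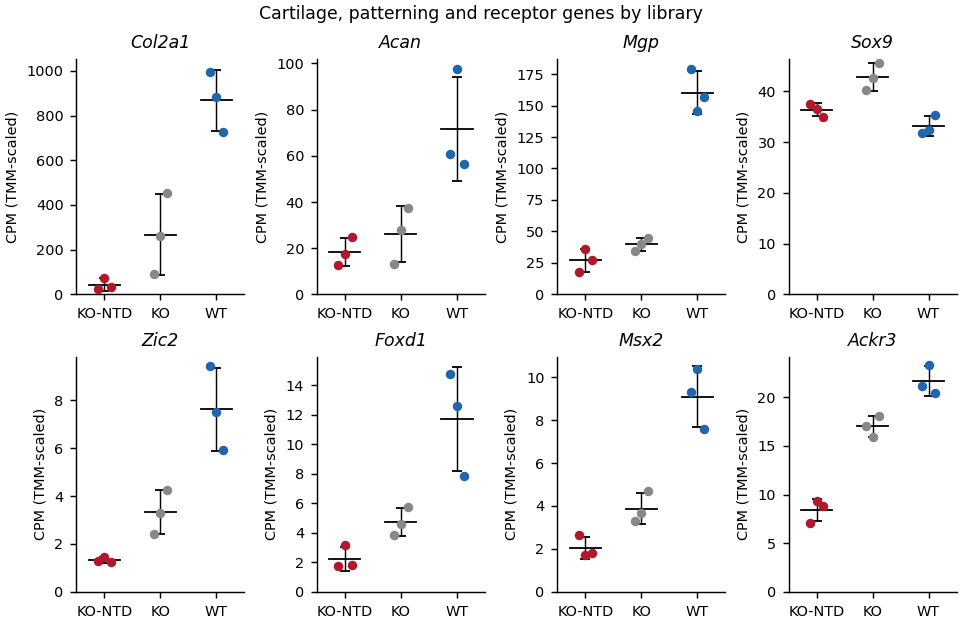
TMM-scaled CPM of cartilage, patterning and receptor genes in the KO-NTD, KO and WT libraries (points, 1 per library) with the mean (long line) and SD (bar, n = 3). All genes but Sox9 are lower in each KO-NTD library than in any WT library, and for these 7 genes the KO libraries lie between the groups or overlap KO-NTD.

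A pair of membrane proteins completes the lowest 12 genes whose log2 CPM averaged 1 or more. Prdm6, a regulator of smooth muscle, was lower than both of them but below that level (-1.86, edgeR adjusted p = 0.0454). Ackr3, a scavenging receptor for the chemokine CXCL12, had 7.12, 9.32 and 8.83 CPM in KO-NTD, against 21.2, 23.4 and 20.4 CPM in WT (-1.36 ± 0.11, SE, edgeR adjusted p = 0.00154). Ano1, a calcium-activated chloride channel, had 1.98, 2.61 and 2.17 CPM in KO-NTD, against 7.06, 8.31 and 6.16 CPM in WT (-1.67 ± 0.19, SE, edgeR adjusted p = 0.00713). Both calls held with any library left out.

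Genes that rose were few. Mlkl, the effector of necroptosis, had 12.7, 17.3 and 11.4 CPM in KO-NTD, against 6.48, 6.28 and 6.10 CPM in WT (1.13 ± 0.15, SE, edgeR adjusted p = 0.016). The highest WT value was well below the lowest KO-NTD value. Ifi204, an interferon-inducible DNA sensor of the p200 family, had 11.9, 11.2 and 14.1 CPM in KO-NTD, against 5.60, 5.89 and 6.24 CPM in WT (1.07 ± 0.14, SE, edgeR adjusted p = 0.0131). Mnda, named Ifi211 in GENCODE M21 and a neighbour of Ifi204 in the same family, was at 0.87 (edgeR adjusted p = 0.0454). Reads shared between these paralogs may have been split, which was not tested, so both values are uncertain. Besides Foxm1, the remaining higher genes were Arhgap24 (0.65), Neto2 (0.65), Sec16b (0.55), Lhfpl2 (0.46) and Tln2 (0.41). Arhgap24 is a Rac-directed GTPase-activating protein and Neto2 an auxiliary subunit of kainate receptors. Sec16b belongs to endoplasmic reticulum exit sites, and Tln2 is a talin that couples integrins to actin. Every higher gene other than Foxm1 lost its call when at least 1 single library was left out. KO against WT also called Mlkl (log2 change 1.10), Ifi204 (1.41), Lhfpl2 (0.54) and Sec16b (0.50) higher. Mnda (0.75), Arhgap24 (0.60), Neto2 (0.35) and Tln2 (0.16) were above 0 there without a call.

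Interferon-stimulated genes leaned upward with 1 call. Of 39 tested, 36 were above 0 with a median of 0.66, and Ifi204 alone passed. The same list had a median of 1.31 in KO against WT, beside 0.01 for all genes, with 1 member called higher. In KO-NTD against KO its median was -0.67, beside -0.01 for all genes, with 0 members called. Isg15, a ubiquitin-like modifier induced by interferon, had 2.4996, 1.14 and 6.04 CPM in KO-NTD, against 1.97, 1.402 and 2.12 CPM in WT (edgeR adjusted p = 0.752). KO-NTD library 3 was the highest, library 2 the lowest, and the same order was seen in the macrophage markers given above, whose part in these values was not tested. None of 18 tested macrophage markers passed. No glycolysis or hypoxia gene passed of 32 tested. Their median was 0.21, 27 were above 0, and 19 were higher without overlap, where all genes gave 10.2% (lowest p for Higd1a, edgeR adjusted p = 0.226). No member passed among the lists for senescence (28 tested, median 0.28), endoplasmic reticulum stress (29, -0.08), TGF-beta targets (22, 0.02), cholesterol synthesis (25, -0.11), immediate early genes (21, -0.11), imprinted genes (26, -0.32), ribosomal proteins (39, 0.00), xenobiotic and oxidative stress genes (23, -0.12) or oxidative phosphorylation (28, 0.01).

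KO-NTD differed from WT both in the KO label and in NTD, and the KO libraries of the same experiment separate the 2 in part. KO-NTD against KO gave 1 called gene of 14551 (0.00687%), which was Foxm1 (ratio 2.47, 2.24 to 2.73). Before adjustment 972 genes had p under 0.05, and DESeq2 called 27. Without KO library 1 the edgeR count was 29. That library stood apart from KO libraries 2 and 3 (Pearson r of log2 CPM 0.959 and 0.961, against 0.991 between those 2). The comparison shares the KO-NTD libraries with the one against WT, and KO against WT shares the WT libraries, so the values of each are set side by side with no overlap or correlation between them. KO against WT called 65 genes (0.447%), 18 higher (0.124%) and 47 lower (0.323%). Nek2 had 19.9, 20.8 and 17.3 CPM in KO, and its ratio of KO-NTD to KO was 1.05 with a 95% interval of 0.926 to 1.201. Cenpa gave an interval of 0.912 to 1.10, Dlgap5 of 0.898 to 1.06, Ccnb1 of 0.904 to 1.07 and Knstrn of 0.763 to 0.9997. The G2/M list had a median of 0.04 in KO-NTD against KO, beside -0.01 for all genes, with no call among 46 members, and the lowest adjusted p was 0.714.

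Of the other 63 genes that passed against WT, none passed against KO in edgeR, with log2 changes of -2.60 to 0.30. Missing the threshold does not show that they were alike in KO-NTD and KO. The lowest adjusted p were those of Ackr3 and Arnt2. Ackr3 had 17.1, 15.9 and 18.1 CPM in KO, all above the KO-NTD values, a ratio of KO-NTD to KO with an interval of 0.415 to 0.589 (edgeR adjusted p = 0.0715). Arnt2, a partner of bHLH-PAS factors, had 14.7, 15.8 and 14.9 CPM in KO-NTD, 21.5, 21.7 and 21.6 CPM in KO and 23.4, 20.9 and 21.4 CPM in WT (edgeR adjusted p against KO = 0.12). KO and WT overlapped for Arnt2, and KO-NTD lay below both. Col2a1 had 89.0, 260 and 453 CPM in KO and an interval of 0.062 to 0.435 against KO (edgeR adjusted p = 0.714), so a difference from KO of several fold fits within it. Zic2, Msx2 and Foxd1 were also lower in every KO-NTD library than in any KO library, without passing the test.

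Experiment 2 shares no library with experiment 1 and holds WT-NTD and Het-NTD beside its own WT. It was fitted together with experiment 1, and CPM in the following are scaled in that joint fit. In WT-NTD against WT, 3 genes were called of 14738 (0.0204%), all higher, and Foxm1 was one of them. Foxm1 had 401, 289 and 335 CPM in WT-NTD, against 143, 145 and 147 CPM in WT (log2 change 1.24, edgeR adjusted p = 1.8e-06). In Het-NTD against WT, 1777 genes were called (12.1%), 819 higher (5.56%) and 958 lower (6.5%), and Foxm1 had 347, 306 and 374 CPM in Het-NTD. None of the 55 genes lower in KO-NTD was called in WT-NTD, where 50 were below 0 and the median was -0.11. Of the same 55 genes, 43 were called lower and 1 higher in Het-NTD, 54 were below 0 and the median was -0.43. Of the 9 higher genes, 1 was called higher in WT-NTD (Foxm1) and 7 in Het-NTD.

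Single genes are given beside these counts. Nek2 had 34.7, 32.7 and 33.2 CPM in Het-NTD, 44.3, 45.4 and 49.9 CPM in WT-NTD and 50.9, 50.6 and 53.8 CPM in WT of experiment 2. Het-NTD passed against WT (log2 change -0.63, edgeR adjusted p = 9.4e-05) and WT-NTD did not (-0.15, 0.842). Cenpf had 51.9, 57.0 and 53.5 CPM in Het-NTD, 64.5, 75.0 and 81.2 CPM in WT-NTD and 80.5, 72.6 and 71.8 CPM in WT. Het-NTD lay below both other groups, whose values overlapped. Col2a1 had 32.5, 22.1 and 37.8 CPM in Het-NTD, 13.3, 107 and 120 CPM in WT-NTD and 29.3, 401 and 390 CPM in WT of experiment 2, so a low Col2a1 value also occurred in WT library 1. The same library was the lowest of the 3 WT for Foxd1 (1.79, 7.32 and 5.25 CPM), Msx2 (1.95, 4.48 and 5.05 CPM), Zic2 (0.520, 2.31 and 2.11 CPM) and Ackr3 (8.86, 29.6 and 17.6 CPM). Lama1, a laminin chain of basement membranes, was the gene called lower in KO-NTD and higher in Het-NTD, at 19.1, 15.7 and 19.2 CPM in Het-NTD against 10.5, 9.98 and 5.61 CPM in WT.

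The size of the change was then compared between experiments. The KO-NTD change differed from the WT-NTD change for 31 genes (0.21%), 3 with a higher (0.0204%) and 28 with a lower value (0.19%) in KO-NTD, and 25 of the 55 lower genes and 1 of the 9 higher genes were among them. Those genes were chosen on the experiment 1 libraries that enter the difference, so these counts are not independent of the choice. Nek2 differed by -1.17 ± 0.10 (SE, edgeR adjusted p = 1.3e-05), Cenpa by -0.89 ± 0.08 (SE, 1.3e-05) and Cenpf by -1.29 ± 0.14 (SE, 1.0e-04). Against the Het-NTD change 88 genes differed (0.597%), 36 higher (0.244%) and 52 lower (0.353%), with 14 of the 55 lower genes and 1 of the 9 higher genes among them. Nek2 differed by -0.70 (edgeR adjusted p = 0.00531). Arl5a, a small GTPase of the Golgi, differed the other way by 0.62 (edgeR adjusted p = 5.3e-05), with 65.5, 66.0 and 72.0 CPM in Het-NTD against 158, 154 and 157 CPM in WT of experiment 2. The experiment and the genotype cannot be told apart in these differences. The 88 genes rested on single libraries, with 17 left without WT library 3 of experiment 2 and 175 without WT library 2 of experiment 1.

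**Figure D5:**
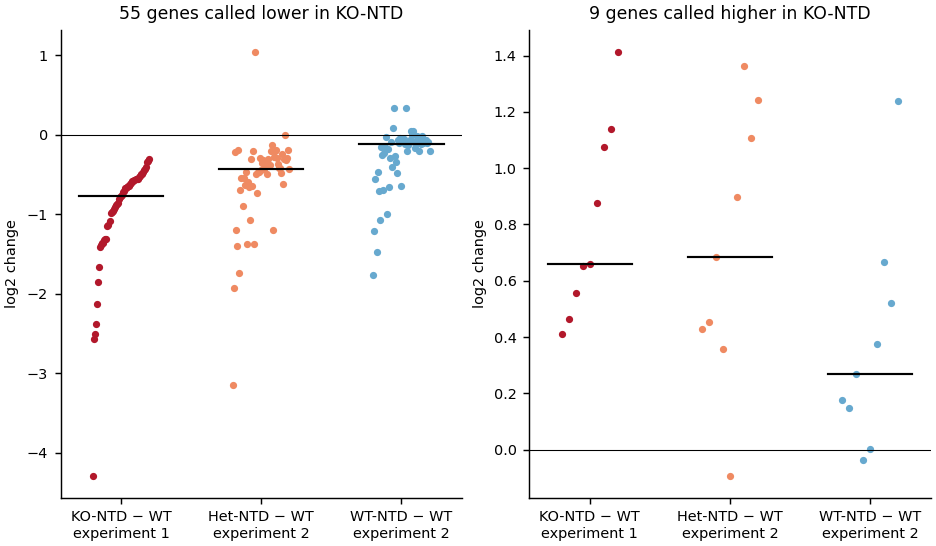
Log2 changes in the joint fit for the 55 genes called lower (left panel) and the 9 called higher (right panel) in KO-NTD against WT, with the median as a line: KO-NTD minus WT in experiment 1, and Het-NTD minus WT and WT-NTD minus WT in experiment 2. Het-NTD has 54 of the 55 lower genes below 0 with a median of -0.43, and WT-NTD has 50 with a median of -0.11.

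The promoters of the lower genes were searched for the same letters over 300 bases, from 250 before to 50 after the start. Of the 55 genes 43 had a promoter in the table. TTTGAA on either strand was in 18 of 43 (41.9%), against 14.4% of the 11390 tested genes with a promoter and 17.9% of all promoters. Within the G2/M list it was in 8 of 14 called promoters (57.1%) and in 17 of 26 that were not called (65.4%). CCAAT was in 30 of 43 (69.8%), against 42.7% of tested genes, and within the list in 12 of 14 called and 20 of 26 not called. Of the lower genes outside the list 10 of 29 held TTTGAA and 18 of 29 held CCAAT. The forkhead letters GTAAACA were in none of the 43, against 3.06% of tested genes. The G2/M genes that passed the test and those that did not both held CHR and CCAAT letters often, and a match is a description of the letters and not a bound site.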

How the data were processed

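Libraries were prepared with an unstranded TruSeq RNA kit, per the labels. Values are raw read counts per gene symbol as deposited by the authors. The submitters' processing notes name build mm10 and the tools featureCounts 1.4.6, Subread, TopHat2 2.0.14 and Bowtie2 2.2.6, and the annotation and strand setting are not given in the sources used here. The 9 libraries of experiment 1 were fitted in edgeR 4.0.16 (R 4.3.3; filterByExpr, TMM, robust quasi-likelihood F test, two-sided, Benjamini-Hochberg, threshold 0.05): 14551 genes, 6 residual degrees of freedom. The joint fit held 21 libraries and 14738 genes. CPM are TMM-scaled. An exact permutation test of 3 against 3 cannot go below 0.1 and was not used. The closest library pair within a group differed by a chi-square of 17.4 per degree of freedom, so each library counted once. Scripts were tested on simulated data. Genes were named by rule: Foxm1, called non-overlapping genes of average log2 CPM of at least 1 (12 highest, 12 lowest), up to 4 called members per list or else the lowest p, and Ect2, Rhoa and Diap1. Members and lists were chosen with earlier results of these data known. Coordinates are GENCODE M21 on GRCm38. Alternatives were scaling, filters, DESeq2, groups fitted, single libraries left out, a replicate block and, added later, covariates.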

Additional observations from a re-analysis of the deposited data

Results flagged for a closer look

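The changes below differed between experiments, by an edgeR test of the difference between the KO-NTD minus WT change of experiment 1 and a change of experiment 2 (adjusted p under 0.05). Each value is the KO-NTD change less the other change, on the log2 scale. Against the WT-NTD minus WT change, 13 of the 46 G2/M genes had a lower difference and none a higher one (0.19% lower among all genes). Among genes of mitosis the difference was -1.29 for Cenpf, -1.26 for Cdc25b, -1.17 for Nek2, -1.12 for Gas2l3 and Knstrn, -0.97 for Aspm, -0.89 for Cenpa, -0.80 for Troap, -0.75 for Dlgap5, -0.71 for Ccnf, -0.70 for Ccnb1, -0.58 for Cep55 and Fam83d, -0.50 for Kif2c and -0.43 for Kif23. Among other genes that were named it was -1.26 for Klk8, -1.04 for Cep89, -0.67 for Arl6ip1, -0.66 for Uevld, -0.63 for Arl5a, -0.60 for Cntrl, -0.54 for C330027C09Rik, -0.49 for Hp1bp3, -0.48 for Trim59 and -0.37 for Rad21. It was positive for Pcdhgb1 (1.26), a clustered protocadherin whose exons are shared within its cluster, and for Arhgap24 (0.66).

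Against the Het-NTD minus WT change, 7 of the 46 G2/M genes had a lower difference and 2 a higher one, Prc1 (0.49) and Plk1 (0.41), with 0.353% lower and 0.244% higher among all genes. The difference was -0.84 for Gas2l3 and Cenpf, -0.81 for Knstrn, -0.75 for Cep89, -0.70 for Nek2, -0.68 for Cenpa, -0.49 for Dlgap5, -0.48 for Cntrl, -0.42 for Uevld, -0.41 for Ccnb1, -0.40 for Arl6ip1 and -0.37 for Hp1bp3. The 5 lowest values among genes whose log2 CPM averaged 1 or more were those of Rps15a-ps6 (-6.42), a pseudogene whose reads its parent gene can share, Ucp2 (-2.76), Lama1 (-1.95), Tgfbi (-1.86) and Sparcl1 (-1.69). Rps15a-ps6 varied within a group, with 0.436, 7.43 and 7.24 CPM in WT of experiment 1. KO-NTD had 0.465, 0.749 and 0.303 CPM, which overlapped WT (edgeR adjusted p = 0.311). Values were higher for Slco4a1 (3.06), Deptor (2.14), Il1rl1 (1.77), Maob (1.32), Galnt18 (1.24), Arhgap24 (0.76), Ephx1 (0.67) and Arl5a (0.62). The experiments differ in more than genotype, and the part of the experiment in these differences was not tested.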

How the results depend on the processing

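The 64 genes called in KO-NTD against WT became 401 with DESeq2, 100 with only the KO-NTD and WT libraries fitted and 264 with a macrophage score added as covariate (chosen after seeing the data), and leaving out single libraries gave 34 to 211. KO-NTD against KO gave 1 gene, 2 with no low-count filter or with the macrophage score, 27 with DESeq2 and 1 to 29 with a library left out. KO against WT gave 65 genes, 479 with DESeq2, 36 with only those groups, 36 with Xist or Y expression as a covariate (also chosen after seeing the data), 459 with the macrophage score and 24 to 142 with a library left out. The difference from WT-NTD gave 31 genes, 102 with DESeq2 and 25 to 42 with a library left out. The difference from Het-NTD gave 88 genes, 374 with DESeq2, 55 with only the 4 groups fitted and 17 to 175 with a library left out. Where a library is left out, the group keeps 2 and the spread is pooled over groups. The G2/M list gave 11 to 17 called members over all settings, and Foxm1 stayed between 1.35 and 1.47 on the log2 scale. Of the 64 genes 31 passed under all 19 alternatives and none reversed. Reversed directions, all in genes that had not passed in KO-NTD against WT, were seen for Cd14 (-0.29 without KO-NTD library 3, range -0.29 to 1.19 over libraries left out), Slco4a1 (-0.40 without KO-NTD library 3, -0.40 to 0.85), Lck (0.10 without WT library 1, -0.52 to 0.10), Myh8 (-0.22 without KO-NTD library 2, -0.22 to 2.29) and Galnt18 (-0.054 without WT library 2 and -0.063 without KO-NTD library 1, -0.063 to 0.24). The causes were not tested. A fit with the replicate number as a block called 50 genes. Libraries of the same number did not deviate together throughout (r = 0.001, 0.236 and 0.118 for KO-NTD with WT, and 0.174, -0.483 and 0.608 for KO-NTD with KO). WT libraries 2 and 3 correlated best with the KO-NTD library of their own number, and WT library 1 with another number. The numbers are hence not taken as pairs. Zic2 and Msx2, though of low abundance, passed under all 19 alternatives. Whether depth or the spread of 3 libraries limits low-abundance genes was not tested.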
